A study of Homo sapiens with 6 samples.

Results

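The lysyl oxidases, lysyl hydroxylases and the alpha subunits of collagen prolyl 4-hydroxylase were examined in MCF10A cells, a benign human mammary epithelial line, with and without overexpression of the potassium channel subunit GIRK1 (gene KCNJ3). The genes were chosen by symbol as crosslinking and hydroxylation enzymes of collagen, with earlier results of these data known. Other hydroxylation enzymes of collagen, P4HA3 and P3H2 among them, were placed on another list. All 10 chosen genes (LOX, LOXL1, LOXL2, LOXL3, LOXL4, PLOD1, PLOD2, PLOD3, P4HA1 and P4HA2) were found among 20802 gene amplicons. Of these, 9 passed the filter on low counts in each comparison and LOXL4 did not. RNA was measured in 6 libraries by amplicon sequencing with 1 amplicon per gene, 2 libraries each being labelled MCF10A WT (parental), MCF10A eGFP (stable overexpression of the fluorescent protein eGFP, the vector control) and MCF10A GIRK1 (stable overexpression of GIRK1). The MCF10A GIRK1 construct carries eGFP as well, and both transfected lines were selected with G418 and sorted on eGFP fluorescence, which the parental cells were not. Whether the 2 replicates of a condition are separate transfections is not given in the sources used here. The p-values therefore measure the spread between these libraries, which may be technical.

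Collagen chains are modified in 2 steps before they form stable fibres. Inside the endoplasmic reticulum, prolyl 4-hydroxylase, a tetramer of alpha subunits (P4HA1, P4HA2 or P4HA3) and beta subunits (P4HB), makes the hydroxyproline that keeps the triple helix stable at body temperature, and the lysyl hydroxylases PLOD1, PLOD2 and PLOD3 make the hydroxylysine used for crosslinks and for attached sugars. Outside the cell, the copper-dependent enzymes LOX and LOXL1 to LOXL4 oxidise lysine and hydroxylysine in collagen and elastin to aldehydes, which then condense into crosslinks. Several of these genes, LOX, LOXL2, PLOD2 and P4HA1 among them, are known as targets of the hypoxia-inducible factor (HIF), and LOX and LOXL2 are widely studied in breast cancer for their part in matrix stiffening and invasion.

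Depth ranged from 2506120 to 16040556 reads per library, so that 3 reads corresponded to between 0.187 and 1.20 RPM, the read count of a gene scaled to the total of its library. KCNJ3 had 0 reads in MCF10A WT replicate 2 and in both MCF10A eGFP libraries, against 2408 and 3677 reads in MCF10A GIRK1. The library labelled WT replicate 1 stood apart. It had 48 KCNJ3 reads, its 10 luminal markers summed to 18910 RPM against 531 to 1029 RPM in the other libraries, and its 9 basal markers summed to 395 RPM against 8463 to 15950 RPM. The basal keratin KRT5, abundant in the other 5 libraries, was at 0.80 RPM there, while the basal marker TP63 had 0 reads in all 6 libraries. The luminal markers ESR1, TFF1 and KRT19 were at 192, 5106 and 924 RPM there and had 0 reads in the other 5 libraries. These values go against a parental MCF10A library, so its label could be wrong. It was kept out of the comparisons and its values are given apart. Of 10 fibroblast markers, PDGFRA, THY1, COL1A2 and COL3A1 had 0 reads in the other 5 libraries, where the list summed to between 17.6 and 48.1 RPM. FAP made up 76.6% of that sum in eGFP replicate 1, at 35.1 RPM, and DCN 65.4% in GIRK1 replicate 1, at 27.0 RPM. FAP was at 8.89 RPM in eGFP replicate 2, 10.7 RPM in WT replicate 2, and 9.36 and 14.6 RPM in the GIRK1 libraries. COL1A1 was between 2.81 and 9.17 RPM in these 5 libraries, and LUM, PDGFRB and POSTN had 10 reads or fewer. The deposited files of the MCF10A GIRK1 libraries carry a run tag that differs from the tag shared by the other 4, so that a run and the condition cannot be told apart.

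The promoters of LOX, PLOD1 and PLOD2 are shown because these are the genes of the group that were lower in both MCF10A GIRK1 libraries than in every control library and whose upstream sequence holds the core of a HIF site. The 250 bases before the RefSeq start site (GRCh38.p14) are given 5′ to 3′ on the strand of the gene, in lower case, with each ACGTG or GCGTG on either strand (CACGT or CACGC on the printed strand) in capitals. LOX lies on chr5:122063195-122078360, PLOD1 on chr1:11934205-11975538 and PLOD2 on chr3:146069440-146163653 in the GENCODE annotation of GRCh38.
LOX, chr5:122078260-122078509, minus strand: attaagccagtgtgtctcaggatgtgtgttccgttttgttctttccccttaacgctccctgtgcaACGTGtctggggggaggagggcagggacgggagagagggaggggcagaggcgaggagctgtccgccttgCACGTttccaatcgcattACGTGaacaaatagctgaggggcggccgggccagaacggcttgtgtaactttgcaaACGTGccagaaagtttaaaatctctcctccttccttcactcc
PLOD1, chr1:11934467-11934716, plus strand: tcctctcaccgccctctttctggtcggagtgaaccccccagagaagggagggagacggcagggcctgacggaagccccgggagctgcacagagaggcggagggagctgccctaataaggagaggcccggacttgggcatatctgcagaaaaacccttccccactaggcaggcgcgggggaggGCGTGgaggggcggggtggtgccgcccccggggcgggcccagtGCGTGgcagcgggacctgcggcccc
PLOD2, chr3:146161185-146161434, minus strand: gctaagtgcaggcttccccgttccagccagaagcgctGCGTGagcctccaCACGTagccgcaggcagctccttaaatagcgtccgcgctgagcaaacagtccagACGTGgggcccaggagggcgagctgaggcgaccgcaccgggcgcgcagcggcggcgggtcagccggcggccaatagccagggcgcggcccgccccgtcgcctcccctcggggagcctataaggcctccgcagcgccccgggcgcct
LOX held 4 such matches, all of the ACGTG form, PLOD2 held 3 and PLOD1 held 2, both of the GCGTG form. Of all 27305 RefSeq genes with such a window, 43.1% held at least 1 match, 19.5% at least 2, 7.89% at least 3 and 3.26% at least 4. LOXL2, also below every control, has no window in the RefSeq table, so its promoter was not examined. Of the other 9 enzyme genes, 4 held a match, beside the 43.1% of all genes, so the group was near that share. The 4 were LOX, PLOD1, PLOD2 and P4HA1, the last with 1 match. LOXL1, LOXL3, LOXL4, PLOD3 and P4HA2 held none, although PLOD3 was also below every control. Because LOX, PLOD1 and PLOD2 were shown for holding a match, their match counts are no test of enrichment. For P4HA2 the nearest RefSeq start in the table lay 766 bases from the start of the transcript that the amplicon reads. A match is a property of the letters only and was not linked to factor binding here.

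In the comparison of MCF10A GIRK1 with the controls, LOX and LOXL2 separated most clearly. LOXL2 differed from MCF10A eGFP by -5.46 on the log2 scale and LOX from the 3 control libraries by -1.64, and each passed the test in that comparison but not in the other. PLOD1, PLOD2 and PLOD3 were also below every control library but did not pass the adjusted threshold. No gene of the group was called higher in either comparison by edgeR or DESeq2. In edgeR 0 had an unadjusted p below 0.05 in that direction. DESeq2 called 1.93% and 2.98% of all genes higher in the 2 comparisons, so 0 of 9 genes cannot show a departure from that share. LOXL1 differed from MCF10A eGFP by 0.52 (log2, confidence interval -0.84 to 1.88), so a rise of this gene was not excluded. The comparisons were MCF10A GIRK1 against MCF10A eGFP, its vector control, and MCF10A GIRK1 against both MCF10A eGFP libraries plus MCF10A WT replicate 2. Because they share 4 libraries, they are given side by side and not as independent results.

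**Figure D1:**
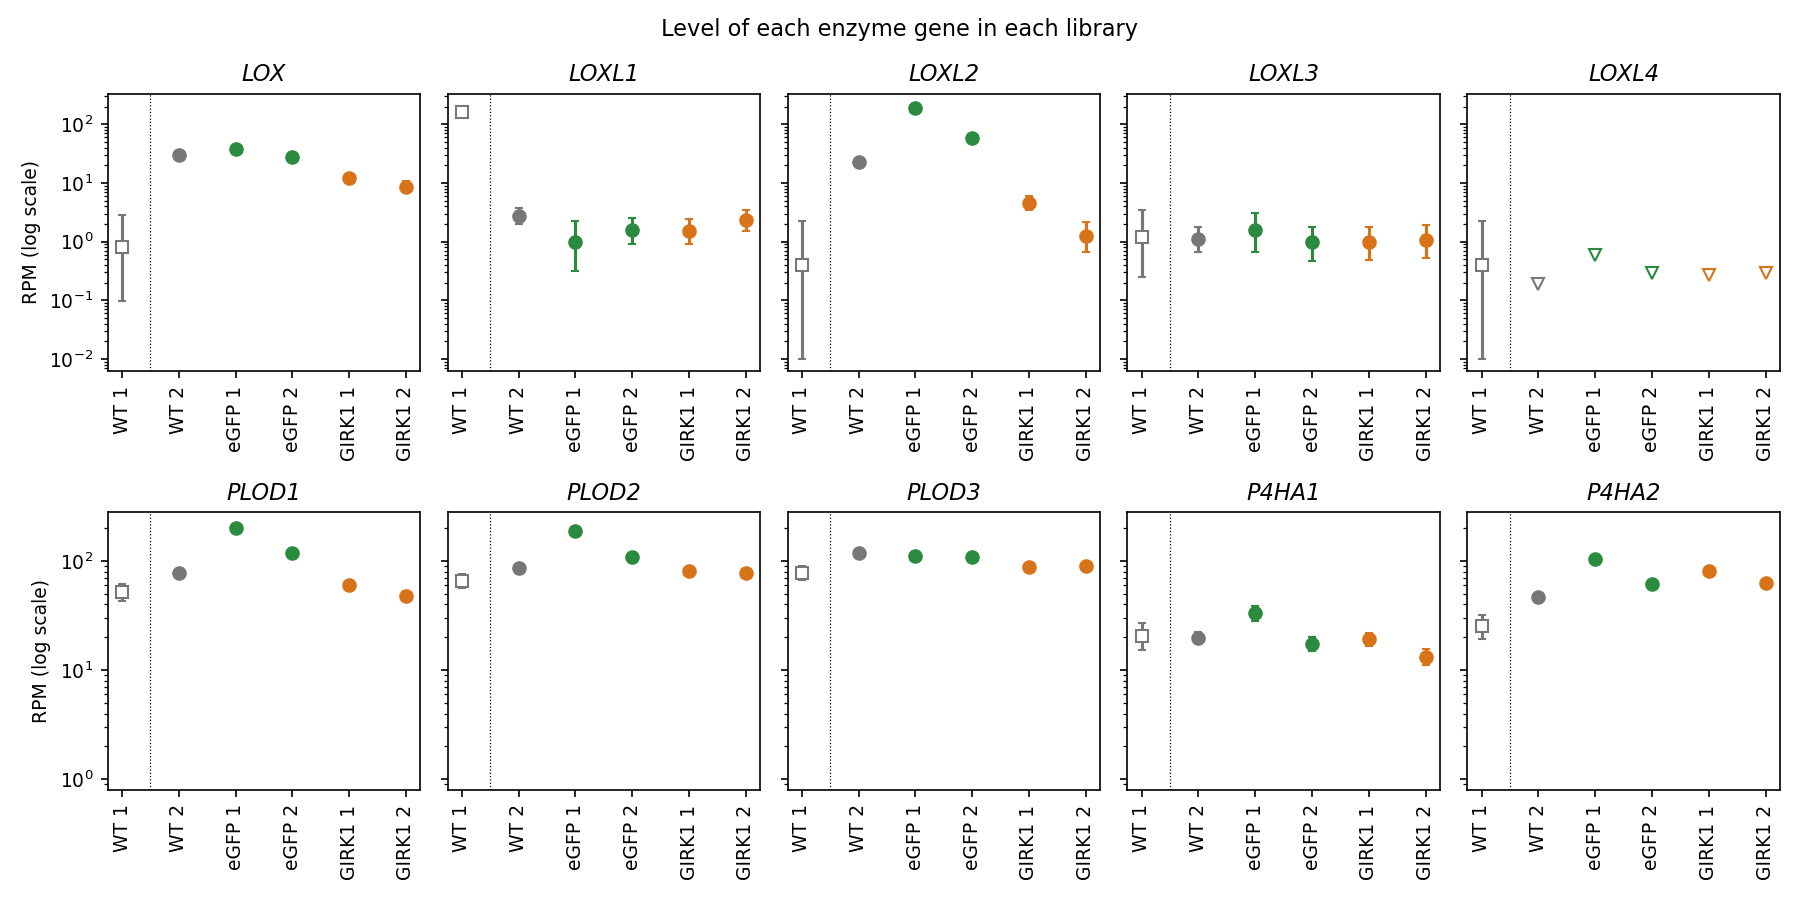
Level of each of the 10 genes in each library, in RPM on a log scale, with exact 95% binomial intervals of the read counts that cover counting error only. The open square left of the dotted line is the library labelled WT replicate 1, open triangles mark the 3-read floor where a gene had 0 reads, and grey, green and orange stand for WT, eGFP and GIRK1. LOXL2 ran from 191 RPM in eGFP replicate 1 down to 1.26 RPM in GIRK1 replicate 2, whereas PLOD3 kept between 88.7 and 119 RPM in the 5 libraries right of the line.

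LOXL2, a secreted lysyl oxidase with scavenger-receptor domains that acts on basement-membrane collagen IV, was read from 979 reads (191 RPM) in eGFP replicate 1 and 588 reads (57.5 RPM) in eGFP replicate 2. WT replicate 2 gave 360 reads (22.4 RPM), and the MCF10A GIRK1 libraries gave 51 reads (4.59 RPM) and 13 reads (1.26 RPM). The lowest control was 4.89-fold above the highest MCF10A GIRK1 library, although the 3 controls themselves spanned 8.51-fold and the MCF10A GIRK1 libraries 3.65-fold. Against MCF10A eGFP the log2 fold change was -5.46 ± 0.80 (SE, n = 2 against 2, 95% confidence interval -7.35 to -3.57), with an adjusted p of 0.0295 (edgeR quasi-likelihood test, adjusted over all genes by Benjamini-Hochberg). In this test 0.84% of the 11779 genes were called lower and 0.756% were called higher in MCF10A GIRK1, and LOXL2 was 1 of 9 enzyme genes called lower, with 0 called higher. Of the 9, 4 had an unadjusted p below 0.05, compared with 18.8% of all genes. DESeq2, run on the same libraries, called LOX, LOXL2 and PLOD1 lower in both comparisons, that is 3 of 9 genes, compared with 3.82% of all genes against MCF10A eGFP and 4.1% against the 3 controls. It called 0 of the 9 higher, compared with 1.93% and 2.98%.

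With WT replicate 2 among the controls, the LOXL2 difference was -4.99 ± 1.12 (SE, n = 2 against 3) with an adjusted p of 0.0922 by edgeR's quasi-likelihood test. DESeq2 still called LOXL2 lower with the same controls (adjusted p = 0.00233, DESeq2). Why the edgeR call was lost was not tested. Parental LOXL2 was below both vector-control libraries, which were 8.51-fold and 2.56-fold above it. Without eGFP replicate 1, the library with the highest level, the log2 difference of LOXL2 was -4.26 against the remaining MCF10A eGFP library. That fit had no spread within MCF10A eGFP, so only the size is given. Against the remaining controls, where 984 of 11274 genes were called, LOXL2 differed by -3.73 (adjusted p = 0.00473, edgeR). Against the 3 controls it was not called without eGFP replicate 2 (-5.25, adjusted p = 0.228), GIRK1 replicate 1 (-6.19, adjusted p = 0.41) or GIRK1 replicate 2 (-4.36, adjusted p = 0.583, all edgeR), and was called without WT replicate 2 (-5.46, adjusted p = 0.0369, edgeR). With the library labelled WT replicate 1 kept in the fit, its adjusted p against MCF10A eGFP was 0.905 at nearly the same fold change.

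LOX, the founding enzyme of the family, which crosslinks fibrillar collagen and elastin, had the tighter replicates. Its level was 37.6 RPM (193 reads) and 27.4 RPM (280 reads) in the eGFP libraries and 29.5 RPM (473 reads) in WT replicate 2. It was 11.9 RPM (132 reads) and 8.60 RPM (89 reads) in the GIRK1 libraries. The 3 controls lay within 1.38-fold of each other and the lowest was 2.30-fold above the higher MCF10A GIRK1 library. Against the 3 controls the log2 fold change was -1.64 ± 0.27 (SE, n = 2 against 3, 95% confidence interval -2.29 to -1.002), with an adjusted p of 0.0454 by edgeR's quasi-likelihood test. LOX was 1 of 9 enzyme genes called lower there, against 0.413% of the 11389 genes tested, and 0 were called higher, against 0.799%. Against MCF10A eGFP alone the difference was -1.71 ± 0.31 (SE, n = 2 against 2) and the adjusted p 0.0523, just outside the threshold in edgeR.

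LOX and LOXL2 therefore each lay on a different side of the threshold in the 2 comparisons, while their directions were the same in both. The LOX call also depended on single libraries. Against the 3 controls its edgeR adjusted p was 0.0597 without WT replicate 2, 0.156 without eGFP replicate 2, 0.248 without GIRK1 replicate 1 and 0.481 without GIRK1 replicate 2, with fold changes between -1.88 and -1.44 over all the libraries left out in turn. LOX and LOXL2 were also the 2 of the 9 enzyme genes whose lowest control was at least 2-fold above the highest MCF10A GIRK1 library, a limit chosen after the values were seen, which 1.5% of all genes tested met.

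The other lysyl oxidases were at the edge of detection in these 5 libraries. LOXL1, an enzyme of elastic fibre assembly, had 44 reads (2.74 RPM) in WT replicate 2, 5 and 16 reads (0.98 and 1.56 RPM) in the eGFP libraries and 17 and 24 reads (1.53 and 2.32 RPM) in the GIRK1 libraries. These ranges overlap, and the difference from MCF10A eGFP was 0.52 ± 0.57 (log2, SE, adjusted p = 0.652, edgeR). LOXL3 had between 8 and 18 reads per library, corresponding to 0.977 to 1.56 RPM, with no visible order of the groups and a log2 difference of -0.29 ± 0.66 (SE, adjusted p = 0.836, edgeR). Only between 38.9% and 87.5% of the LOXL3 reads covered the amplicon, whereas LOX, LOXL2 and the hydroxylases reached at least 90.6% in the same libraries. LOXL4 had 0 reads in these 5 libraries, which allows up to between 0.187 and 0.585 RPM, and was not tested.

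Among the lysyl hydroxylases, PLOD1, which hydroxylates lysine in the triple helix, was lowest in MCF10A GIRK1. It measured 202 and 117 RPM in the eGFP libraries, 77.4 RPM in WT replicate 2 and 60.7 and 48.1 RPM in the GIRK1 libraries. The groups did not overlap, but the parental library was only 1.28-fold above the higher MCF10A GIRK1 library. The log2 fold change was -1.61 ± 0.33 (SE, adjusted p = 0.0738, edgeR) against MCF10A eGFP and -1.32 ± 0.43 (SE, adjusted p = 0.176, edgeR) against the 3 controls. Without eGFP replicate 1, in which PLOD1 was highest, the difference from the other controls was smaller, at -0.82, and passed the threshold (adjusted p = 0.0435, edgeR).

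PLOD2, which hydroxylates telopeptide lysine and so sets the kind of crosslink formed, followed the same order of libraries at smaller distances. It measured 187 and 110 RPM in the eGFP libraries, 85.9 RPM in WT replicate 2, and 80.7 and 77.1 RPM in the GIRK1 libraries. The parental library exceeded the higher MCF10A GIRK1 library by 1.07-fold, and the exact 95% intervals of these counts, 81.4 to 90.6 RPM and 75.5 to 86.1 RPM, overlapped. The log2 difference was -0.96 ± 0.31 (SE, adjusted p = 0.172, edgeR) against MCF10A eGFP and -0.73 ± 0.36 (SE, adjusted p = 0.327, edgeR) against the 3 controls. The difference from MCF10A eGFP was -0.45 without eGFP replicate 1 and -1.35 without eGFP replicate 2, so the choice of vector-control library set its size.

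PLOD3, which also attaches the sugars to hydroxylysine, had the steadiest level of the group. It measured 119 RPM in WT replicate 2, 112 and 109 RPM in the eGFP libraries, and 88.7 and 90.7 RPM in the GIRK1 libraries. The 3 controls lay within 1.09-fold and the MCF10A GIRK1 libraries within 1.02-fold of each other. The groups did not overlap and the lowest control was 1.20-fold above the higher MCF10A GIRK1 library. The difference of -0.34 ± 0.20 (log2, SE) against MCF10A eGFP had an edgeR adjusted p of 0.395, and its 95% confidence interval ran from -0.82 to 0.14. Altogether 5 of the 9 enzyme genes (LOX, LOXL2, PLOD1, PLOD2 and PLOD3) were lower in both MCF10A GIRK1 libraries than in all 3 controls, compared with 19.6% of all genes tested. None was higher in both, compared with 21.6% of all genes.

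The prolyl 4-hydroxylase alpha subunits overlapped between the groups. P4HA1, the main alpha subunit of most cells, measured 33.2 and 17.3 RPM in the eGFP libraries, 19.9 RPM in WT replicate 2, and 19.1 and 13.2 RPM in the GIRK1 libraries. P4HA2, the alternative subunit, measured 104 and 61.2 RPM in the eGFP libraries, 46.6 RPM in WT replicate 2, and 80.9 and 63.1 RPM in the GIRK1 libraries. For both genes the MCF10A GIRK1 values fell inside the range of the controls or overlapped it. The log2 differences from MCF10A eGFP were -0.68 ± 0.39 (SE, adjusted p = 0.377, edgeR) for P4HA1 and -0.25 ± 0.32 (SE, adjusted p = 0.697, edgeR) for P4HA2. Their 95% confidence intervals, -1.61 to 0.24 and -1.01 to 0.50, leave room for more than a 2-fold decrease of P4HA1 and for a 2-fold decrease of P4HA2. Both depended on the vector-control library. Without eGFP replicate 2 the log2 differences were -1.14 for P4HA1 and -0.64 for P4HA2, and without eGFP replicate 1 they were -0.079 and 0.25. Each of these fits left 1 MCF10A eGFP library, so only the sizes are given.

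**Figure D2:**
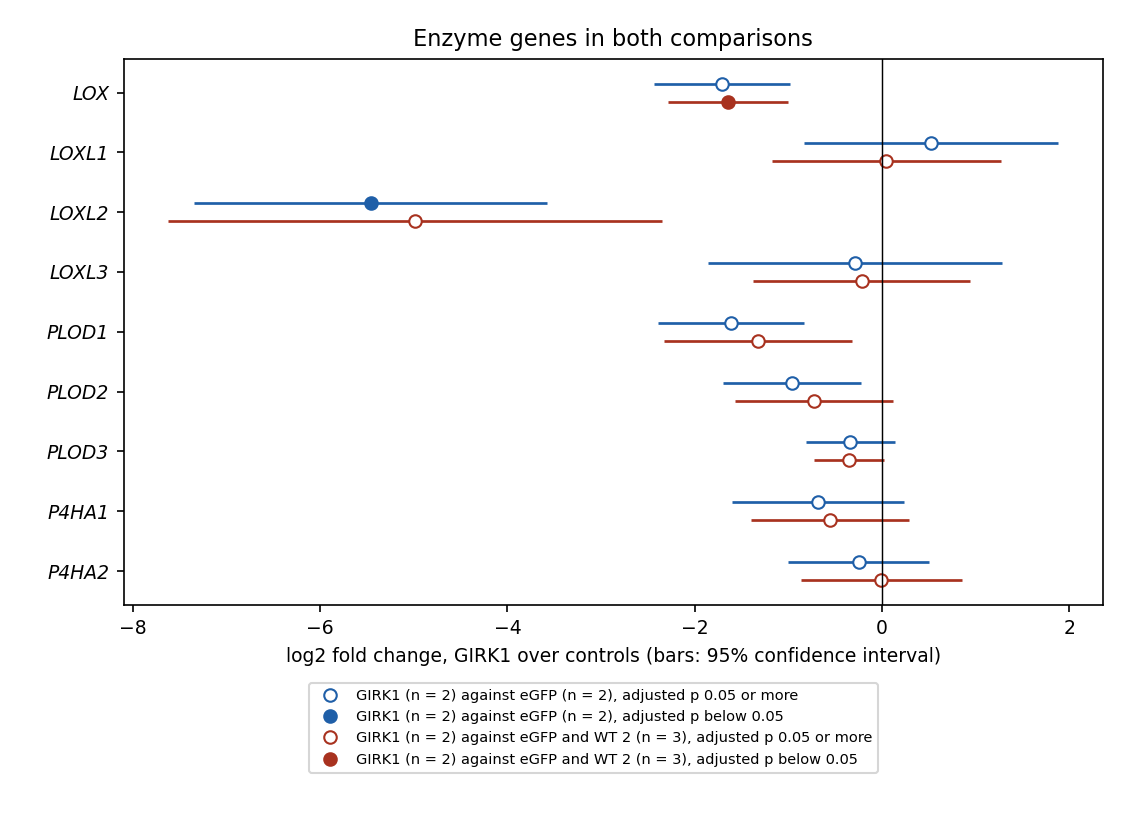
Log2 fold changes of the 9 tested genes in MCF10A GIRK1 (n = 2) over MCF10A eGFP (n = 2, blue) and over the 3 control libraries (red), with 95% confidence intervals as bars and filled points for adjusted p below 0.05. Only LOXL2 in the first comparison (-5.46) and LOX in the second (-1.64) are filled, and the intervals of LOX, LOXL2 and PLOD1 stay below 0 in both.

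A simpler rule, a difference of at least 2-fold between mean levels with a coefficient of variation below 0.7 in each pair of replicates, picked out a different set of the group. By this rule LOX and PLOD1 were lower in MCF10A GIRK1, that is 2 of the 9 tested genes, compared with 5.32% of all genes tested. The mean of LOX was 32.5 ± 7.27 RPM in the eGFP libraries and 10.2 ± 2.32 RPM in the GIRK1 libraries (SD, n = 2 each), a 3.17-fold difference. The mean of PLOD1 was 160 ± 60.0 RPM and 54.4 ± 8.87 RPM (SD, n = 2 each), a 2.94-fold difference. LOXL2, with means of 124 ± 94.4 and 2.92 ± 2.36 RPM (SD, n = 2 each) and the greatest fold difference of the group at 42.5-fold, failed the rule because its coefficient of variation was 0.76 and 0.81 in the 2 groups.

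The level of most of these genes also differed between the MCF10A eGFP replicates. LOXL2 was 3.32-fold, P4HA1 1.92-fold, PLOD1 1.72-fold, PLOD2 1.70-fold, P4HA2 1.70-fold and LOX 1.38-fold higher in eGFP replicate 1 than in eGFP replicate 2, whereas PLOD3 was 1.02-fold higher. A list of 20 genes, named hypoxia-induced here, also holds HIF1A, the gene of a subunit of HIF itself. The summed level of the list was 7504 RPM in eGFP replicate 1, 3763 RPM in eGFP replicate 2 and 3366 RPM in WT replicate 2. It was 2699 and 2465 RPM in the GIRK1 libraries. The order of the libraries in this sum was the same as that of LOXL2, PLOD1 and PLOD2, but in eGFP replicate 1 LDHA made up 50.2% and NDRG1 19.5% of it. Without these 2 genes, an alternative chosen after seeing the data, the sum was 2272 and 2350 RPM in eGFP replicates 1 and 2, 2093 RPM in WT replicate 2, and 1718 and 1605 RPM in MCF10A GIRK1, so that eGFP replicate 1 was no longer highest. Of the 20 genes, 13 were higher in eGFP replicate 1 than in eGFP replicate 2 and 7 were lower, VEGFA among them at 0.363-fold. In MCF10A GIRK1, 10 of the 20 were below all 3 controls, compared with 19.6% of all genes tested. The 10 included HIF1A, and ANKRD37, which had few reads and was not tested. Above all 3 controls were 3 of the 20 (EGLN1, KDM3A and MXI1, named after their values were seen), compared with 21.6% of all genes tested. The part of hypoxia-induced expression, or of culture density, in the differences of these genes was not tested.

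Within that list, 1 of 19 tested genes was called lower against MCF10A eGFP and 0 against the 3 controls, compared with 0.84% and 0.413% of all genes. None was called higher in either, compared with 0.756% and 0.799% of all genes. An unadjusted p below 0.05 was found for 9 of the 19 against MCF10A eGFP and 7 against the 3 controls, compared with 18.8% and 18.7% of all genes. DESeq2 called 5 and 4 genes of the list lower in the 2 comparisons, compared with 3.82% and 4.1% of all genes. HIF1A was among them in both. The median log2 difference of the list was -0.70 and -0.61, compared with 0.016 and -0.0074 over all genes. The called gene was CA9, a carbonic anhydrase strongly induced through HIF, with 59.3 and 14.8 RPM in the eGFP libraries, 6.05 RPM in WT replicate 2, and 0.900 and 0.290 RPM (10 and 3 reads) in the GIRK1 libraries. Its log2 difference from MCF10A eGFP was -5.97 ± 0.88 (SE, adjusted p = 0.0308, edgeR), close in size to that of LOXL2. For comparison, the median log2 difference of the 9 tested crosslinking and hydroxylation genes was -0.68 against MCF10A eGFP and -0.56 against the 3 controls.

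**Figure D3:**
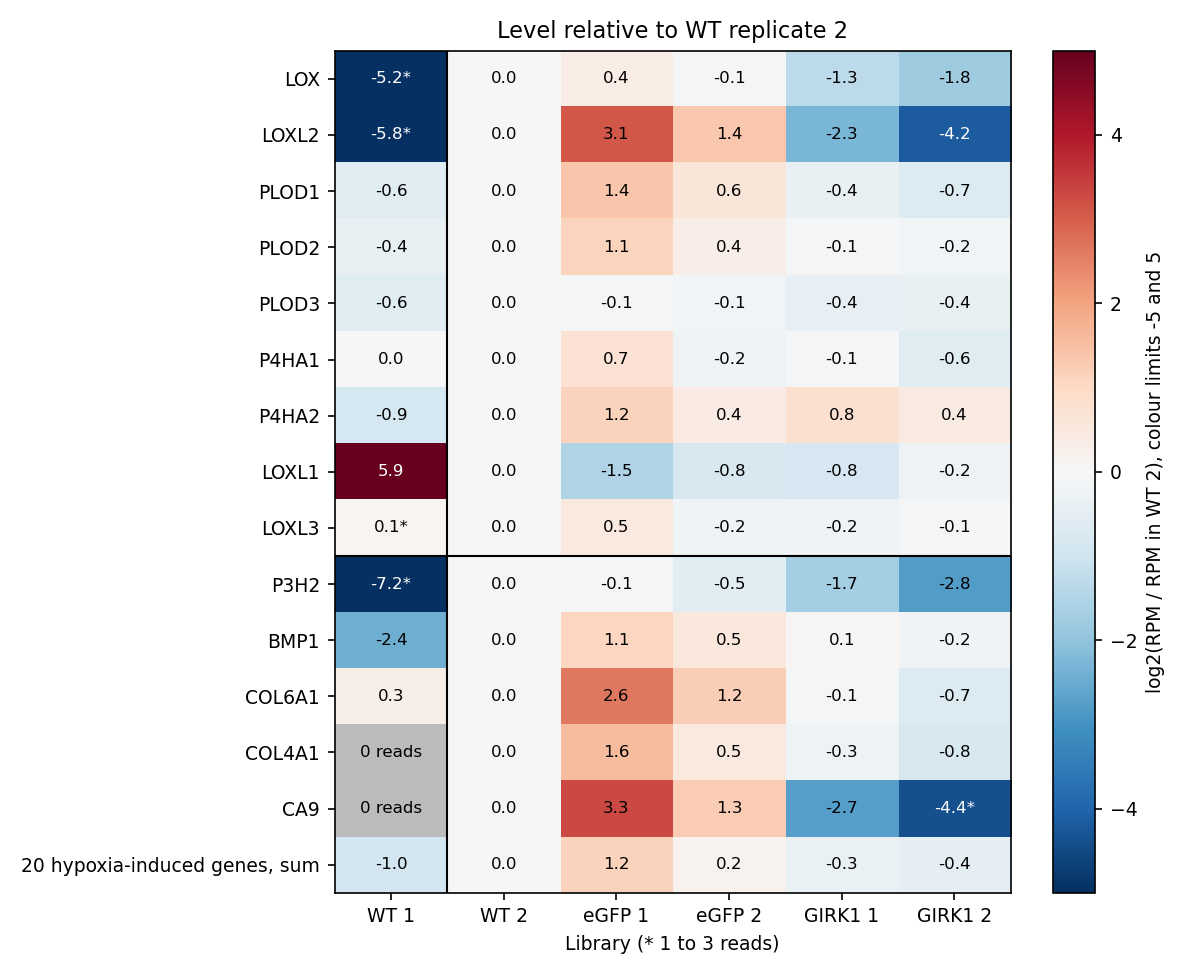
Level of each gene relative to WT replicate 2, as log2 of the RPM ratio, for 9 enzyme genes (above the line) and for the named genes of the other lists with the summed hypoxia-induced list (below the line). Asterisks mark values from 1 to 3 reads and grey fields have 0 reads. LOXL2 and CA9 share a sequence of high levels in eGFP replicate 1 (3.1 and 3.3) and low levels in GIRK1 replicate 2 (-4.2 and -4.4), and LOXL1 stands out in the library labelled WT replicate 1 (5.9).

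The remaining genes of the collagen pathway were followed on lists written by function. Of 14 other modifying enzymes and chaperones, 13 were tested against MCF10A eGFP and 0 were called in either direction by edgeR. Their median log2 difference was 0.033. An unadjusted p below 0.05 was found for 1 gene, compared with 18.8% of all genes. That gene was P3H2, a prolyl 3-hydroxylase of basement-membrane collagen, with 55.8 and 41.0 RPM in the eGFP libraries, 58.5 RPM in WT replicate 2, and 18.0 and 8.51 RPM in the GIRK1 libraries. It did not overlap between the groups and its log2 difference was -1.91 ± 0.39 (SE, adjusted p = 0.0738, edgeR). P4HB, the beta subunit that the P4HA proteins need, differed by 0.44 ± 0.21 (log2, SE, adjusted p = 0.316, edgeR). In both GIRK1 libraries P4HB, PPIB and COLGALT1 were above all 3 controls, and P3H2 and SERPINH1 were below them. Over all genes tested, 21.6% were above and 19.6% below. Against the 3 controls 0 of 11 tested genes of this list were called by edgeR, and the median log2 difference was -0.26. P3H2, the 1 gene of the list that DESeq2 called lower in both comparisons, differed there by -1.99 ± 0.36 (log2, SE, adjusted p = 0.0596, edgeR). The median of 0.033 against MCF10A eGFP is the value of P3H3. That gene had between 1 and 6 reads in the 5 libraries and was not tested against the 3 controls.

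Of the 8 genes that cleave or assist the cleavage of procollagen, 4 were tested and 0 were called in either comparison by edgeR or DESeq2. In edgeR 2 had an unadjusted p below 0.05 against MCF10A eGFP and 1 against the 3 controls, compared with 18.8% and 18.7% of all genes. The median log2 difference of the 4 was -0.70 against MCF10A eGFP and -0.52 against the 3 controls. BMP1, the procollagen C-proteinase, which also activates the LOX precursor, measured 36.1 and 25.1 RPM in the eGFP libraries, 17.2 RPM in WT replicate 2, and 18.1 and 15.2 RPM in the GIRK1 libraries. Its log2 difference from MCF10A eGFP was -0.92 ± 0.29 (SE, adjusted p = 0.169, edgeR), and the parental library lay between the MCF10A GIRK1 values. The related proteinase TLL1 measured 5.66 and 10.9 RPM in the eGFP libraries and 8.23 RPM in WT replicate 2. It measured 3.69 and 0.290 RPM in the GIRK1 libraries (41 and 3 reads), the latter at the 3-read floor. Its log2 difference was -2.10 ± 0.85 (SE, adjusted p = 0.25, edgeR) from MCF10A eGFP and -2.07 ± 0.78 (SE, adjusted p = 0.228, edgeR) from the 3 controls.

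Of the 15 substrate genes (collagen chains, elastin and fibronectin), 11 were tested and 0 were called by edgeR in either comparison, 4 having an unadjusted p below 0.05 against MCF10A eGFP and 5 against the 3 controls, beside 18.8% and 18.7% of all genes. DESeq2 called 3 of them lower against MCF10A eGFP (COL4A1, COL4A2 and COL6A1), beside 3.82% of all genes, and 0 against the 3 controls, beside 4.1%. The median log2 difference was -0.29 against MCF10A eGFP and -0.14 against the 3 controls. COL6A1, a chain of beaded-filament collagen VI, measured 26.5 and 9.87 RPM in the eGFP libraries, 4.24 RPM in WT replicate 2, and 3.96 and 2.61 RPM in the GIRK1 libraries (log2 difference from MCF10A eGFP -2.51 ± 0.56, SE, adjusted p = 0.0879, edgeR). COL4A1, a basement-membrane collagen chain, measured 34.1 and 16.1 RPM, 11.5 RPM, and 9.54 and 6.67 RPM in the same order (-1.67 ± 0.44, SE, adjusted p = 0.119, edgeR). Both genes had their highest level in eGFP replicate 1, and their parental level lay between those of MCF10A eGFP and MCF10A GIRK1.

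**Figure D4:**
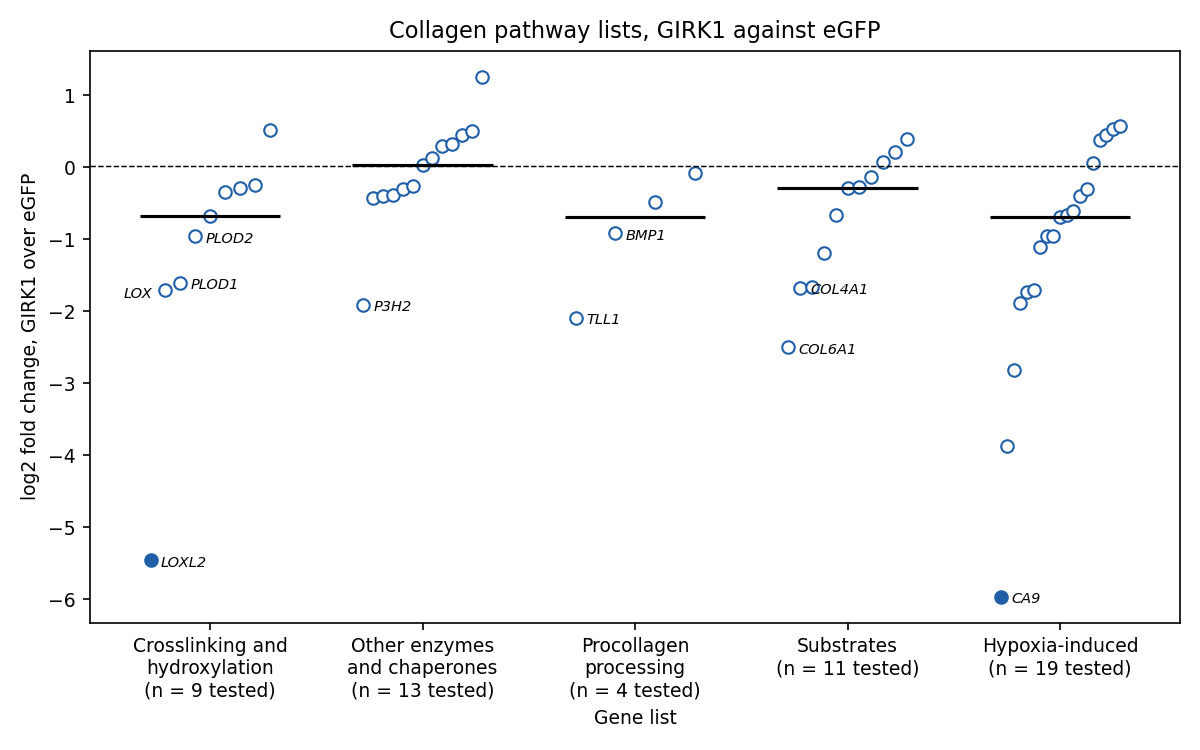
Log2 fold change of each tested gene in MCF10A GIRK1 (n = 2) over MCF10A eGFP (n = 2), by gene list, with filled points for adjusted p below 0.05, solid lines for the median of a list and a dashed line for the median of all genes (0.016). LOXL2 (-5.46) and CA9 (-5.97) are the filled points. The crosslinking and hydroxylation genes centre on -0.68 and the other enzymes and chaperones on 0.033. The procollagen processing genes centre on -0.70, the substrates on -0.29 and the hypoxia-induced list on -0.70.

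Markers of other cell types are given beside these results, and their part in them was not tested. The basal list had 1 of 8 tested genes called higher and 1 called lower against MCF10A eGFP, with the same counts against the 3 controls. Against MCF10A eGFP these were KRT17, with a log2 difference of 2.17 ± 0.22 (SE, adjusted p = 0.00764, edgeR), and LAMB3, with -2.81 ± 0.21 (SE, adjusted p = 0.00301, edgeR). Over all genes, edgeR called 0.756% higher and 0.84% lower against MCF10A eGFP, and 0.799% and 0.413% against the 3 controls. An unadjusted p below 0.05 was found for 18.8% and 18.7% of all genes, and DESeq2 called 1.93% and 2.98% higher. Of 3 tested fibroblast markers, DCN was called higher against MCF10A eGFP, with 27.0 and 25.2 RPM against 0.780 and 3.71 RPM in the eGFP libraries and 10.2 RPM in WT replicate 2 (log2 difference 3.37 ± 0.51, SE, adjusted p = 0.0328, edgeR), and 0 were called against the 3 controls, where 1 had an unadjusted p below 0.05 and DESeq2 called DCN higher. None of the 6 tested luminal markers was called in either comparison by edgeR, 1 having an unadjusted p below 0.05 in each and DESeq2 calling AGR2 higher against MCF10A eGFP. In these bulk libraries, fewer cells that express a gene and less RNA per cell cannot be told apart.

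In the library labelled WT replicate 1, whose markers go against that label, the group had another make-up. LOXL1 reached 163 RPM (408 reads, exact 95% interval 147 to 179 RPM), 59.4-fold above the highest of the other 5 libraries. It made up 98.3% of the reads of the LOX family there, although amplicons of different genes may amplify unequally. LOX had 2 reads (0.80 RPM, exact 95% interval 0.097 to 2.88 RPM), LOXL2 and LOXL4 had 1 read each (0.40 RPM) and LOXL3 had 3 reads, all at or under the 3-read floor of 1.20 RPM. The lowest LOX level of the other libraries, 8.60 RPM in GIRK1 replicate 2, was 7.19-fold above that floor. The hydroxylases were nearer to the other libraries, at 51.5 RPM for PLOD1, 65.8 RPM for PLOD2, 77.8 RPM for PLOD3 and 20.4 RPM for P4HA1. P4HA2 was at 25.1 RPM, 1.85-fold below the lowest of the other libraries. With a single library of this kind there is no replicate check.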

How the data were processed

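RNA of 6 libraries labelled as MCF10A was sequenced by the authors with an Ion AmpliSeq transcriptome panel on an Ion S5 XL instrument. Per the study's methods, reads were mapped to the panel's transcriptome reference (20812 amplicons, 10 of them spike-in controls with 0 reads) in the Ion Torrent suite. The deposited counts are raw reads per amplicon, with forward and reverse covering reads as further deposited counts, and the deposited RPM is that count scaled to the library's total reads. Amplicon positions are on transcripts, 101 to 109 bases long, with no genome build, and the mapping of near-identical sequences is not given in the sources used here. Gene positions come from GENCODE (GRCh38) and promoters from RefSeq (GRCh38.p14).

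Libraries were grouped by their labels. The members and gene lists were chosen with earlier results of these data known. Counts of 5 libraries (the one labelled WT replicate 1, whose label could be wrong, left out) were tested with edgeR 4.0.16 in R 4.3.3, using TMM scaling, filterByExpr, glmQLFit and glmQLFTest, with Benjamini-Hochberg adjustment over all genes and a threshold of 0.05. Standard errors were derived from the F value. MCF10A GIRK1 was compared with MCF10A eGFP (WT replicate 2 as a group of its own) and with both MCF10A eGFP libraries plus WT replicate 2. All 10 genes are named. Of each other list the called genes are named, at most 4, or the 2 with the smallest p where none was called. Exact (Clopper-Pearson) 95% intervals and 3-read floors cover counting error only. Amplicon reads carry no molecular identifiers. The 2-fold rule with a limit of 0.7 on the coefficient of variation follows the study's methods. Alternatives were other scalings and filters, DESeq2 1.42.0, covering reads (in place of end-to-end reads, for which no column was used), the replicate block, WT replicate 1 kept, and each library left out. The scripts were tested on simulated counts.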

Additional observations from a re-analysis of the deposited data

Results flagged for a closer look

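LOXL1 was at 163 RPM in the library labelled MCF10A WT replicate 1, which is outside both comparisons, against 0.98 to 2.74 RPM in the other 5 libraries. KCNJ3 was at 19.2 RPM (48 reads) in the same library, with 0 reads in the other 3 control libraries. Both values were picked out because they lie above the level of the control libraries. The luminal and basal markers of this library go against its label, and these values are not read as those of parental MCF10A cells. The markers are given above, and their part in these values was not tested. No group held the 4 libraries needed for a check of single outlying values.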

How the results depend on the processing

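The main counts were 188 genes and 1 enzyme gene (LOXL2) called against MCF10A eGFP, and 91 higher and 47 lower genes with 1 enzyme gene (LOX) against the 3 controls. Without a filter on low counts, 865 and 374 genes were called, with 3 and 2 enzyme genes. A minimum of 10 reads in every library gave 107 genes in the first comparison. The DESeq2 test called 677 and 806 genes and 3 enzyme genes in each comparison (LOX, LOXL2 and PLOD1). With all 6 libraries, 0 and 7 genes and 0 enzyme genes were called by edgeR, 606 genes having an unadjusted p below 0.05 in the first comparison, and LOXL1 against the controls was at -4.27 on the log2 scale because the library labelled WT replicate 1 joined them. The 2-fold and coefficient of variation rule gave 1210 genes and 2 enzyme genes. With libraries left out in turn, the calls ranged from 158 to 2997 genes and 1 to 6 enzyme genes in the first comparison and from 19 to 984 genes and 0 to 3 enzyme genes in the second. In these fits the lone library of a pair was assumed to vary like the other groups. The 2997 calls and 6 enzyme genes (LOX, LOXL2, PLOD1, PLOD2, P4HA1 and P4HA2) arose without eGFP replicate 2, and 973 calls and 3 enzyme genes without eGFP replicate 1. In the second comparison, 31 genes were called without eGFP replicate 2, 33 without GIRK1 replicate 1 and 19 without GIRK1 replicate 2, with 0 enzyme genes in each, against 984 genes and 3 enzyme genes without eGFP replicate 1. The cause of these shifts was not tested.

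With the replicate number as a block, 549 and 558 genes and 3 enzyme genes (LOX, LOXL2 and PLOD1) in each comparison were called. The deviations of same-numbered MCF10A eGFP and MCF10A GIRK1 libraries correlated at 0.19 over 9288 genes, but with 2 pairs the numbers are names only.

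With libraries left out in turn, LOXL3 against MCF10A eGFP ranged from -0.70 to 0.089 and P4HA2 from -0.64 to 0.25, while against the 3 controls LOXL1 ranged from -0.28 to 0.52 and P4HA2 from -0.25 to 0.44. LOXL3, P4HA2 and LOXL1 changed sign. The highest values of LOXL3 and P4HA2 against MCF10A eGFP arose without eGFP replicate 1, and the lowest of P4HA2 without eGFP replicate 2. P4HA2 against the 3 controls was at 0.035 with total reads as the only scaling, 1.48e-05 without a filter, 0.013 with a minimum of 10 reads, 0.26 with all 6 libraries and 0.15 without GIRK1 replicate 2. LOXL1 against the 3 controls was at -0.069 with covering reads, -0.18 without eGFP replicate 1, -0.069 without eGFP replicate 2 and -0.28 without GIRK1 replicate 2. LOX, LOXL2, PLOD1, PLOD2, PLOD3 and P4HA1 stayed below 0 in every alternative run. Depth limits LOXL3 and LOXL4, and LOXL1 outside WT replicate 1, which had few or no reads.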
